A study of Rattus norvegicus with 6 samples.

Results

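The miR-200 family and miR-203 are microRNAs known mainly from epithelial cells, and their levels were read here in the lumbar spinal cord of rats with bone cancer pain (BCP) and of sham-operated (sham) rats. The members were chosen by name as every listed form of rno-miR-200a, rno-miR-200b, rno-miR-200c, rno-miR-141, rno-miR-429, rno-miR-203a and rno-miR-203b, with either arm of the precursor. This gave 13 of the 753 mature miRNAs in the count table, of which 9 had a count in some library and 4 passed the filter on low counts. Small RNA was sequenced from 3 BCP rats and 3 sham rats 14 days after cells of the Walker 256 line, a rat mammary carcinoma, were placed in the marrow cavity of the left tibia. BCP rats received living cells and sham rats received heat-killed cells, so both groups had the surgery and there was no untouched group. The tissue was the lumbar enlargement on the injected side, with the meninges taken off. The sample labels give the strain as Wistar and the study's methods give female Sprague Dawley rats, and age is not given in the sources used here. The p-values measure the spread between 3 rats per group.

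The miR-200 family lies in 2 genomic clusters, 1 with miR-200c and miR-141 and the other with miR-200b, miR-200a and miR-429. Its members repress the transcription factors Zeb1 and Zeb2, which in turn repress both miR-200 clusters and the adhesion gene Cdh1, and this mutual repression helps to hold cells in an epithelial or a mesenchymal state. miR-203 is a miRNA of stratified epithelium that represses the transcription factor p63 as keratinocytes leave the stem cell state. None of them is known as an abundant miRNA of spinal cord tissue.

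The mature sequences below are those that the differences between the groups turn on, together with the partner that shares each precursor locus. A RefSeq table of rat miRNAs on the GRCr8 assembly held a mature sequence for 10 of the 13 forms, all but rno-miR-200a-3p, rno-miR-200b-3p and rno-miR-429. Each is written 5′ to 3′ with the seed, bases 2 to 8, in capitals, because the seed sets most of a miRNA's target pairing.
rno-miR-200c-3p: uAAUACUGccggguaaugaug
rno-miR-141-3p: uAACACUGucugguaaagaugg
rno-miR-203a-3p: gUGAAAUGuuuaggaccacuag
rno-miR-203b-3p: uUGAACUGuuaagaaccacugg
rno-miR-203a-5p: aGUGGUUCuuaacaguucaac

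The miR-200c-3p and miR-141-3p sequences differed at 4 of 21 aligned positions, 1 of them in the seed. That seed difference is U4C, counted from the 5′ end with the miR-200c base first. The family is known to divide by this base into 2 seed groups, miR-200b, miR-200c and miR-429 in one and miR-200a and miR-141 in the other, so each genomic cluster holds both seeds. The miR-203a-3p and miR-203b-3p sequences differed in the seed by A6C, with the miR-203a base first. In the RefSeq annotation the miR-203b precursor overlaps that of miR-203a on the opposite strand, and 20 bases of miR-203b-3p were the reverse complement of miR-203a-5p. By the same comparison, 20 bases of miR-203b-5p were the reverse complement of miR-203a-3p. The precursors of miR-200c and miR-141 lie close together on 1 strand, as do those of miR-200b, miR-200a and miR-429.

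The total count was between 13464349 and 23770677 per library, so 3 counts, used here as the floor below which a level is not told from 0, stood for 0.126 to 0.223 CPM (the count of a miRNA scaled to a fixed library total). BCP rat 1 and sham rat 3 stood apart on the second principal component, at 4.41 and -6.07, with the other 4 libraries between -1.35 and 1.54. On the first component they lay side by side at -0.11 and -0.44, between the other BCP rats (-4.78 and -6.15) and the other sham rats (4.33 and 7.16). Tissue identity was checked on 10 listed forms of neural and caudal cord miRNAs (miR-124, miR-9a, miR-128, miR-219a, miR-338 and miR-10b). All 10 passed the filter, 0 were called and their summed level was 138000 to 149100 CPM in the BCP group and 133400 to 145500 CPM in the sham group. Their log2 fold changes ran from -0.19 for miR-338-5p to 0.35 for miR-9a-3p, with 0.18 for miR-9a-5p, the most abundant. Of all 753 miRNAs, 150 were listed at 0 in every library, among them both arms of miR-451, of miR-144 and of miR-142, which are abundant in blood cells. A value of 0 is therefore given here as a listing and not as absence of the miRNA.

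Across the family the arms and clusters were very unequal. The 13 forms together held 2245 counts over all 6 libraries, and the 6 forms from the 5p arm held 4 of these. The 5p arms of miR-200c, miR-141, miR-203a and miR-203b were listed at 0 in all libraries. miR-200b-5p had 1 count in BCP rat 2 and 1 in sham rat 1, and miR-200a-5p had 1 count in each of BCP rats 1 and 3. By mean CPM over the 6 libraries, miR-203a-3p ranked 322 of the 603 miRNAs with any count, miR-200c-3p ranked 340, miR-200b-3p 411, miR-200a-3p 452, miR-203b-3p 485, miR-429 497 and miR-141-3p 525. miR-203b-3p stood above miR-429 through the BCP group, at a mean of 0.573 CPM against 0.225 CPM. In the sham group their order cannot be told so near the floor, with 1, 3 and 2 counts against 2, 2 and 7. The median tested miRNA had 51.0 CPM, above each of these. Mature miRNAs are of nearly equal length, but the capture of each sequence in the library differs, so levels of different miRNAs compare only roughly.

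miR-200c-3p, the most abundant miR-200 member, rose in the BCP group. BCP rats 1, 2 and 3 gave 239, 171 and 191 counts, against 56, 70 and 38 counts from sham rats 1, 2 and 3. Scaled by library size with TMM factors, this was 10.1, 12.6 and 12.1 CPM in the BCP rats and 4.04, 4.60 and 2.54 CPM in the sham rats. The groups did not overlap, and the lowest value of all was that of sham rat 3. The means were 11.6 ± 1.296 CPM (SD, n = 3 rats) and 3.73 ± 1.07 CPM (SD, n = 3 rats), 3.11-fold higher in the BCP group. The log2 fold change was 1.63 (standard error 0.228, 95% interval 1.11 to 2.16, edgeR quasi-likelihood test, adjusted p = 0.00556). It was the 1 family member past both thresholds, a log2 fold change of more than 0.8 in size with an adjusted p under 0.05, which 16 of the 459 tested miRNAs passed, or 3.49%, with 16 higher in the BCP group and 0 lower. At an unadjusted p below 0.05, 49 were higher and 11 lower. In bulk tissue, more cells of a type and more RNA per cell cannot be told apart.

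miR-141-3p, the partner of miR-200c-3p in its cluster, stayed near the floor. The BCP rats gave 1, 5 and 3 counts and the sham rats 3, 0 and 1, with 5 of 6 libraries at or under 3 counts. The groups overlapped. The ratio of summed counts, scaled by library size, was 1.87 in favor of the BCP group with an exact 95% interval of 0.522 to 8.31, which covers counting error only. That interval holds both no change and the 3-fold rise seen for miR-200c-3p, so a difference was not detectable at this depth. For each count of miR-141-3p there were 66.8 counts of miR-200c-3p in the BCP group and 41 in the sham group, the latter over 4 counts of miR-141-3p.

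**Figure D1:**
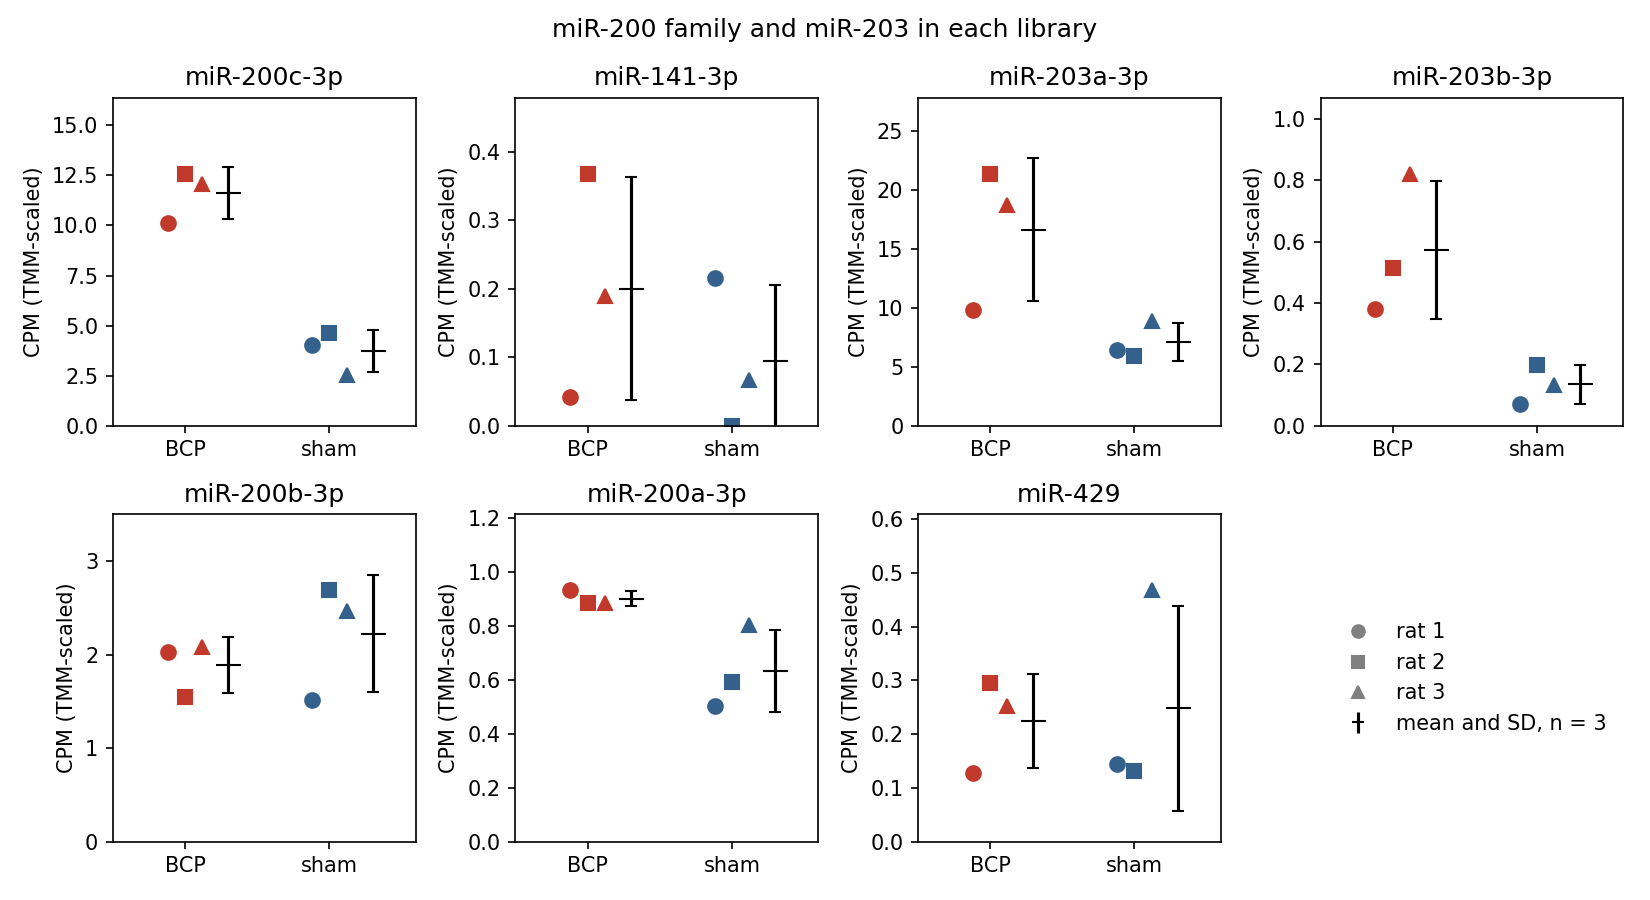
The level of the 7 family members with more than 2 counts in all, in CPM scaled by TMM factors, in each BCP rat (red) and each sham rat (blue), with the mean and SD of 3 rats beside the points. Each panel has its own vertical axis from 0; miR-200c-3p, miR-203a-3p, miR-203b-3p and miR-200a-3p had no overlap between the groups, while miR-200b-3p, miR-429 and miR-141-3p overlapped.

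In the miR-200b, miR-200a and miR-429 cluster, miR-200b-3p and miR-200a-3p were tested and were not called, and miR-429 and both 5p arms were removed by the filter on low counts. miR-200b-3p, which is known to share the seed of miR-200c-3p, was counted 48, 21 and 33 times in the BCP group and 21, 41 and 37 times in the sham group. This was 2.04, 1.55 and 2.09 CPM against 1.51, 2.70 and 2.47 CPM, and the groups overlapped, with the highest and the lowest value both in sham rats. The log2 fold change was -0.23 (standard error 0.275, 95% interval -0.87 to 0.40, same edgeR test, adjusted p = 0.777). The upper end of that interval lies below the lower end of the interval for miR-200c-3p.

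miR-200a-3p, of the same seed group as miR-141-3p, was low in both groups. It was counted 22, 12 and 14 times in the BCP group and 7, 9 and 12 times in the sham group, or 0.933, 0.884 and 0.885 CPM against 0.505, 0.592 and 0.803 CPM. Every BCP rat was above every sham rat, with a narrow gap to sham rat 3. The log2 fold change was 0.50 (standard error 0.292, 95% interval -0.17 to 1.18, same edgeR test, adjusted p = 0.546). It reached the filter's level of 0.674 CPM in 3 BCP libraries and 1 sham library, so its place among the tested miRNAs rested on the BCP group. miR-429, the remaining member of this cluster, was counted 3, 4 and 4 times in the BCP group and 2, 2 and 7 times in the sham group. With 3 of 6 libraries at or under 3 counts it stood near the floor, and the ratio of summed counts was 0.831 (exact 95% interval 0.327 to 2.11, counting error only).

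miR-203a-3p, the most abundant of all 13 forms, was higher in each BCP rat without passing the adjusted threshold. The BCP rats gave 232, 290 and 295 counts and the sham rats 89, 90 and 133. This was 9.84, 21.4 and 18.7 CPM in the BCP rats and 6.42, 5.92 and 8.89 CPM in the sham rats. The groups did not overlap, but BCP rat 1 was close to sham rat 3, and these are the libraries that stood apart above. The means were 16.6 ± 6.02 CPM (SD, n = 3 rats) and 7.08 ± 1.59 CPM (SD, n = 3 rats), with a ratio of 2.35. The log2 fold change was 1.22 (standard error 0.302, 95% interval 0.52 to 1.92, edgeR quasi-likelihood test, adjusted p = 0.0692). Without BCP rat 1 it was 1.48 (same edgeR test, adjusted p = 0.00530), past both thresholds, and without sham rat 3 it was 1.39 (same edgeR test, adjusted p = 0.0644). With both of these rats left out, a choice made after seeing the data, it was 1.68 (same edgeR test, adjusted p = 6.40e-04), and miR-200c-3p was then 1.5 (same edgeR test, adjusted p = 9.70e-04). For miR-203a-3p these rats hold the lowest BCP value and the highest sham value, so leaving out either one widens its difference by construction. DESeq2 and edgeR's exact and likelihood ratio tests also put miR-203a-3p past both thresholds, with adjusted p of 0.00497, 0.00323 and 0.00315. It did not pass when 1 of the other 4 rats was left out (adjusted p from 0.171 to 0.300), with limma-voom (0.127), or with total counts (0.110) or RLE factors (0.107) in the same edgeR test.

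miR-203b-3p, annotated on the strand opposite to miR-203a, was counted 9, 7 and 13 times in the BCP group and 1, 3 and 2 times in the sham group. Every BCP rat was above every sham rat, and the sham rats were all at or under 3 counts. The sham level is not told from 0, so no exact fold is given. The ratio of summed counts was at least 1.64 in favor of the BCP group (lower end of the exact 95% interval, counting error only). miR-203b-3p did not pass the filter and so has no value in the main test. With no filter its adjusted p was 0.167 in the edgeR quasi-likelihood test and 0.0436 in edgeR's likelihood ratio test, which passes. With 1 BCP library and 0 sham libraries at the filter's level, that call rests on the BCP group. For each count of miR-203b-3p there were 28.2 counts of miR-203a-3p in the BCP group and 52 in the sham group, the latter over 6 counts of miR-203b-3p.

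Of the 4 tested members, 2 had an unadjusted p below 0.05, miR-200c-3p and miR-203a-3p, against 60 of all 459 tested miRNAs, or 13.1%. Groups did not overlap, with BCP higher, for 3 of the 4, miR-200c-3p, miR-203a-3p and miR-200a-3p, against 61 of 459, or 13.3%. The median log2 fold change over all tested miRNAs was -0.003. With 4 tested members, and 1 of them tested through its level in the BCP group, these counts are a description.

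The 3 loci were then compared by their summed level in each library, over all listed forms. The miR-200c and miR-141 cluster held 10.2, 12.96 and 12.3 CPM in the BCP rats and 4.25, 4.60 and 2.61 CPM in the sham rats, a ratio of means of 3.09. The miR-200b, miR-200a and miR-429 cluster held 3.14, 2.80 and 3.29 CPM in the BCP rats and 2.24, 3.42 and 3.75 CPM in the sham rats, a ratio of 0.982. The miR-203 locus, both strands together, held 10.2, 21.9 and 19.5 CPM in the BCP rats and 6.49, 6.12 and 9.03 CPM in the sham rats, a ratio of 2.38. The first and the last put each BCP rat above all sham rats, and the middle one overlapped. miR-200c-3p held 765 of the 778 counts of the first, and miR-203a-3p held 1129 of the 1164 counts of the last. Their ratios are therefore nearly those of these single members and say little about miR-141-3p or miR-203b-3p. As a share of the family's summed CPM, the miR-200b, miR-200a and miR-429 cluster made up 7.44% to 13.3% in the BCP group and 17.2% to 24.4% in the sham group.

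**Figure D2:**
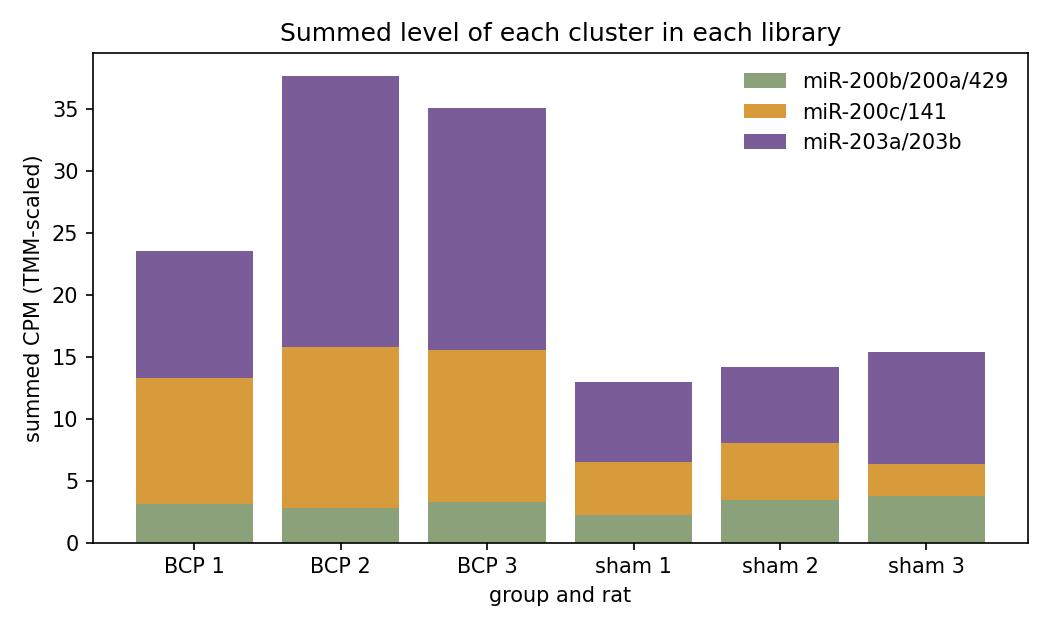
Summed level of the 3 loci in each library, in CPM scaled by TMM factors, stacked from 0 with 1 bar per rat. The family's total was 23.5 to 37.6 CPM in the BCP rats and 12.98 to 15.4 CPM in the sham rats, and the segment of the miR-200b, miR-200a and miR-429 cluster lay between 2.24 and 3.75 CPM in the 6 bars.

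Ratios of counts within a library do not depend on how libraries are scaled, and 5 pairs of the tested members were compared in this way. The ratio of miR-200c-3p to miR-200b-3p was 4.98, 8.14 and 5.79 for the BCP rats against 2.67, 1.71 and 1.03 for the sham rats, a difference of 1.88 in the mean log2 ratio. Every BCP rat was above every sham rat (two-sided exact permutation test, p = 0.1, 0.125 after Benjamini-Hochberg adjustment over the 5 pairs). With 3 rats against 3 the smallest p this test allows is 0.1, so no pair could pass 0.05. The ratio of miR-200c-3p to miR-200a-3p also did not overlap, at 10.9, 14.3 and 13.6 against 8, 7.78 and 3.17, and is given as a description because miR-200a-3p passed the filter through the BCP group. The ratio of miR-203a-3p to miR-200b-3p was 4.83, 13.8 and 8.94 against 4.24, 2.195 and 3.6 (two-sided exact permutation test, p = 0.1), with BCP rat 1 close to sham rat 1.

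Within the miR-200b, miR-200a and miR-429 cluster, the ratio of miR-200b-3p to miR-200a-3p was lower in every BCP rat, at 2.18, 1.75 and 2.36 against 3, 4.56 and 3.08. This is a description, since miR-200a-3p passed the filter through its level in the BCP group, which lowers the ratio there, and had as few as 7 counts in a library. The ratio of miR-203a-3p to miR-200c-3p was 0.971, 1.70 and 1.55 for the BCP rats against 1.59, 1.29 and 3.50 for the sham rats, with overlap (p = 0.5, exact permutation test). Sham-operated rat 3 was the highest, as the library with the most miR-203a-3p and the least miR-200c-3p of its group.

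**Figure D3:**
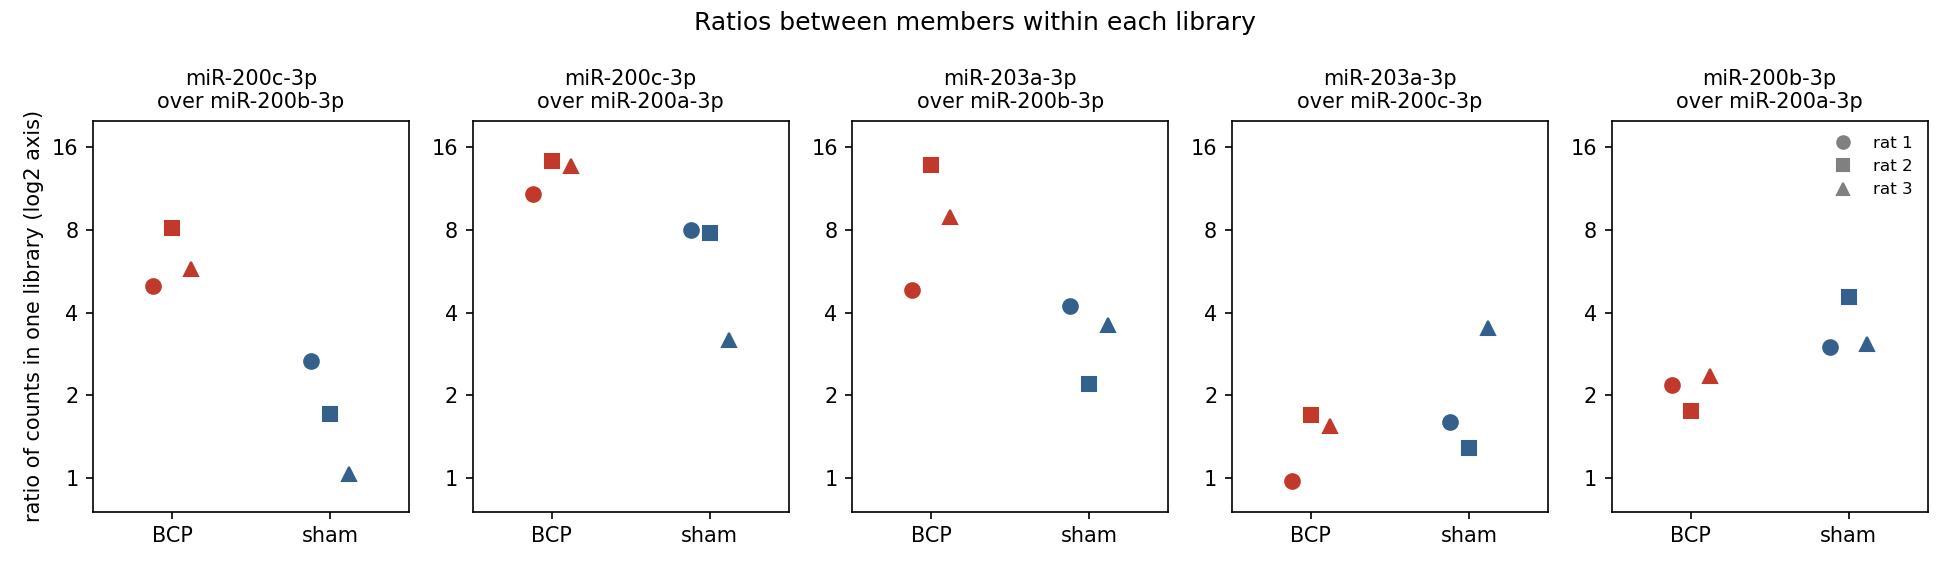
Ratio of counts between pairs of members in each library, on a log2 axis, for 3 BCP rats (red) and 3 sham rats (blue). The groups were parted in 4 of the 5 panels and overlapped for miR-203a-3p over miR-200c-3p, where sham rat 3 was at 3.50.

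Other miRNAs known from epithelial tissue were read beside miR-200c-3p, as a description. Over all 459 tested miRNAs 16, or 3.49%, were called. At that share, 0 called among a few tested forms does not set a list apart, here or in the other lists. A list of miR-205, miR-375, miR-192, miR-194 and miR-215 had 7 listed forms, with no match for miR-215. Of these forms, 5 were tested and 0 were called, at a median log2 fold change of 0.01. miR-205, a miRNA of stratified epithelium like miR-203, had 11.5, 8.10 and 8.41 CPM in the BCP rats and 9.23, 10.7 and 8.03 CPM in the sham rats. Its log2 fold change was 0.01 (95% interval -0.43 to 0.44, edgeR quasi-likelihood test, adjusted p = 1.00). miR-375-3p, a miRNA of endocrine and secretory epithelium, had a log2 fold change of -0.22 (95% interval -0.64 to 0.20), with 56.4 to 84.8 CPM in the BCP group and 69.6 to 94.0 CPM in the sham group.

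miR-192-5p, a miRNA of gut and kidney epithelium and the most abundant on this list, had 208, 310 and 303 CPM in the BCP rats and 218, 193 and 347 CPM in the sham rats. BCP rat 1 was the lowest of its group and sham rat 3 the highest of its group, as for miR-203a-3p, and the same order held for miR-194-5p, at 169, 226 and 226 CPM against 174, 155 and 242 CPM. This order was not particular to epithelial miRNAs: the neural miR-9a-3p had it too, at 1862, 3107 and 3863 CPM against 2070, 1396 and 3442 CPM. The log2 fold change was 0.12 for both miR-192-5p and miR-194-5p, and the lowest on the epithelial list was -0.44 for miR-194-3p (95% interval -1.12 to 0.24). The sensory cluster of miR-183, miR-96 and miR-182, which is known from sensory organs and sensory ganglia, had 4 tested forms, 0 of them called, at a median of 0.09. miR-183-5p, its most abundant form, had a log2 fold change of -0.08 (95% interval -0.33 to 0.17), and the highest was 0.21 for miR-183-3p (95% interval -0.44 to 0.87).

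**Figure D4:**
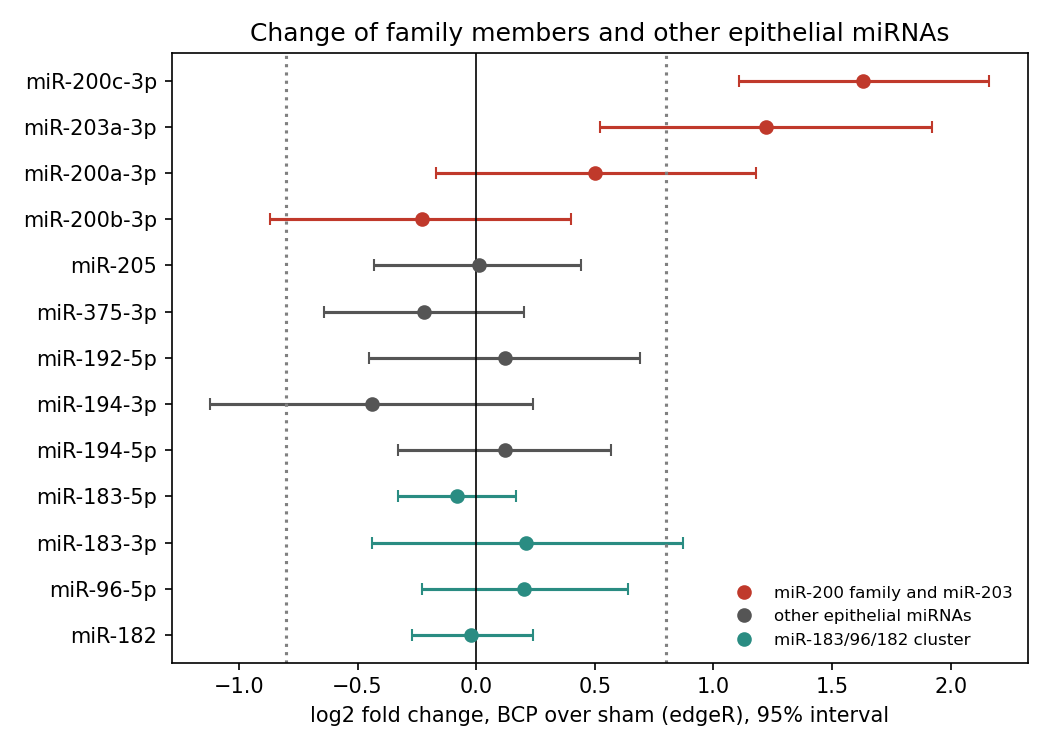
Log2 fold change of BCP over sham rats from edgeR, with the 95% interval, for the 4 tested family members (red), 5 other epithelial forms (grey) and 4 forms of the miR-183, miR-96 and miR-182 cluster (green). Dotted lines mark 0.8 in each direction; the interval of miR-200c-3p, 1.11 to 2.16, lies past the line, while those of miR-200b-3p and of the grey and green forms cross 0.

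Markers of other cells that the tissue could hold were read beside the rise of miR-200c-3p. The list for choroid plexus and ciliated ependyma, the epithelium that lines the central canal and ventricles, had 10 of 13 forms tested and 0 called, with a median of -0.10. Its summed level was 4267 to 4875 CPM in the BCP group and 4111 to 5459 CPM in the sham group. The most abundant form, miR-204-5p, had 3950, 3322 and 3501 CPM in the BCP group against 3930, 4439 and 3075 CPM in the sham group (log2 fold change -0.09, 95% interval -0.42 to 0.25). miR-449a-5p, of multiciliated cells, did not overlap between the groups, at 4.24, 6.85 and 5.25 CPM against 3.24, 1.58 and 4.01 CPM (log2 fold change 0.88, edgeR quasi-likelihood test, adjusted p = 0.286). miR-448-5p, known from choroid plexus, lay lower in every BCP rat, at 2.08, 1.84 and 1.90 CPM against 3.68, 3.42 and 3.34 CPM (log2 fold change -0.83, same edgeR test, adjusted p = 0.0520).

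For blood and myeloid cells 4 of 10 forms were tested and 2 were called, against 3.49% of all tested miRNAs. Both were arms of miR-223, a myeloid miRNA. miR-223-5p had 2.08, 1.84 and 2.53 CPM in the BCP rats and 0.361, 0.526 and 0.268 CPM in the sham rats (log2 fold change 2.46, edgeR quasi-likelihood test, adjusted p = 0.00412). Every sham value lay below the filter's level of 0.674 CPM. Its place among the tested miRNAs therefore rested on the BCP group, and its values are a description. The log2 fold change of miR-223-3p was 2.13, against -0.13 for miR-150-5p and -0.03 for miR-150-3p, and the median of 1.05 lay between these pairs. The other 6 forms on this list were at 0. The summed level of the list, most of it miR-150-5p of lymphocytes, was 979 to 1287 CPM in the BCP group and 1091 to 1382 CPM in the sham group. The part of blood and myeloid cells in the rise of miR-200c-3p was not tested. For skeletal muscle 4 of 8 forms were tested and 0 were called, at a median of 0.01. The most abundant, miR-133a-3p, had a log2 fold change of 0.02, and the range on this list ran from -0.05 for miR-133b-3p to 0.35 for miR-1-3p.

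The miRNAs whose profile over the 6 libraries was most like that of each locus's most abundant member were found by Pearson's correlation of log2(CPM + 1) with all tested miRNAs outside the family. The 6 points share their libraries and the difference between the groups, so these are descriptions. For miR-200c-3p they were miR-18a-3p (r = 0.997), miR-147 (r = 0.983) and miR-210-3p (r = 0.978), and the log2 fold changes of miR-18a-3p and miR-210-3p were 1.48 and 0.59. No fold is given for miR-147, since its sham libraries, at 0.144, 0.197 and 0 CPM, each held at most 3 counts, and its correlation rests in part on these values. miR-18a-3p had 6.83, 7.22 and 7.27 CPM in the BCP rats and 2.74, 3.16 and 1.74 CPM in the sham rats, so sham rat 3 was again the lowest and sham rat 2 the highest of the sham group.

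For miR-203a-3p the nearest profiles were those of miR-20a-5p (r = 0.969), miR-17-5p (r = 0.964) and miR-190b-5p (r = 0.963). miR-17-5p had 183, 245 and 236 CPM in the BCP rats and 115, 104 and 129 CPM in the sham rats, so BCP rat 1 was the lowest of its group and sham rat 3 the highest of its own. For miR-200b-3p they were miR-196c-3p (r = 0.866), miR-214-3p (r = 0.828) and miR-3572 (r = 0.820), with log2 fold changes of -0.23, -0.06 and -0.28, and 0 of these 3 was called. The profiles of miR-200c-3p and miR-203a-3p themselves correlated at 0.790 over the 6 libraries and at -0.0415 once each group's mean was taken away. The BCP rats had the same order for both members, with rat 1 lowest and rat 2 highest, and the sham rats had opposite orders, with rat 3 lowest for miR-200c-3p and highest for miR-203a-3p.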

How the data were processed

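Small RNA of 6 spinal cord libraries, 3 BCP and 3 sham, was analysed, with groups from the sample titles. The authors filtered reads with the FASTX Toolkit, mapped them to Rnor_6.0 (Bowtie2 2.2.3 in the submitters' processing notes) and identified known miRNAs by length and miRBase annotation. The values are the authors' deposited raw read counts for 753 mature miRNAs, without normalization, and 0 sample columns were left unused. How reads matching several miRNAs were assigned is not given in the sources used here, so near-identical members such as miR-200b-3p and miR-200c-3p are uncertain to that extent.

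Counts were filtered with filterByExpr (minimum count 10, 459 kept), scaled by TMM and compared with edgeR 4.0.16 (R 4.3.3), quasi-likelihood test, Benjamini-Hochberg adjustment over all 459 miRNAs. A call needed a log2 fold change of more than 0.8 in size with an adjusted p under 0.05. Reads carry no molecular identifiers, so exact 95% intervals of summed counts and the floor of 3 counts cover counting error only. Within a group, any 2 libraries gave a chi-square of at least 59.0 per degree of freedom, so none was a copy. Alternatives were other filters, normalizations and tests (DESeq2 1.42.0, limma 3.58.1), a replicate block, calls on the adjusted p alone, and leaving out rats. The members and lists were chosen with earlier results of these data known. The miRNAs named are all family members, the 3 nearest profiles per locus and examples from each list. The examples are the most abundant form and those with the highest and lowest log2 fold change. miR-205, miR-375-3p and miR-194-5p were added after their values were seen. miR-223-3p and miR-150-3p, the other tested forms of the blood list, fall outside this rule.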

Additional observations from a re-analysis of the deposited data

How the results depend on the processing

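miR-200c-3p kept its direction and its call under every alternative run, with log2 fold changes from 1.5 to 1.72 and, leaving out each rat, from 1.39 to 1.81 (adjusted p from edgeR up to 0.0401). miR-200b-3p and miR-200a-3p kept their sign and were never called, at -0.26 to -0.15 and 0.48 to 0.67, and at -0.47 to -0.08 and 0.34 to 0.68 leaving out each rat. miR-200a-3p could not be fitted with at least 10 counts in every library. miR-203a-3p, not called in the main test, was called with DESeq2 (1.20), edgeR's exact test (1.23) and its likelihood ratio test (1.23, and 1.21 with no filter). With BCP rat 1 and sham rat 3 both left out it was called at 1.68, but this choice, made after seeing the data, itself widens the difference. Leaving out each rat gave 1.00 to 1.48, with adjusted p from 0.00530 without BCP rat 1 to 0.300 without sham rat 1.

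The number of family members called was 1, and 2 with the exact test, DESeq2, the likelihood ratio test and both rats left out, 3 with the likelihood ratio test with no filter (miR-203b-3p the addition), and 1 to 2 leaving out each rat. Over all miRNAs 16 were called, 25 with the likelihood ratio test, 28 with it and no filter, 54 with both rats left out, and 8 to 20 leaving out each rat (8 without BCP rat 2, 10 without BCP rat 3, 9 without sham rat 1). What causes these differences was not tested.

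Rats with one number are different animals, and their deviations from the group means correlated at 0.109, -0.452 and 0.711 for numbers 1, 2 and 3. With 3 rats per group these values cannot decide whether a number marks a shared step of handling. With the replicate block 2 family members were called, miR-203a-3p at 1.18 (adjusted p = 0.00974) as well as miR-200c-3p. The ratio of summed CPM ranged, leaving out each rat, from 2.67 to 3.44 for the miR-200c and miR-141 cluster, from 0.858 to 1.09 for the miR-200b, miR-200a and miR-429 cluster and from 2.06 to 2.87 for miR-203. Depth limits miR-141-3p, miR-429 and miR-203b-3p.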
